A study of Mus musculus with 6 samples.

Results

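The 10 carboxylesterase genes Ces1b, Ces1c, Ces1d, Ces1e, Ces1f, Ces1g, Ces2a, Ces2c, Ces2e and Ces3a were read in mouse liver RNA. They were taken by name from a table of 58601 genes and loci, which lists 20 carboxylesterase genes in all. Liver RNA sequencing libraries came from mice labelled as Mdr2 knockouts, 8 weeks old at the start, that were given vehicle (n = 3) or lycorine (n = 3) for 2 weeks. Mdr2 (Abcb4) moves phosphatidylcholine into bile and its loss causes cholestatic liver injury, and lycorine is an alkaloid of Amaryllidaceae plants. The title poses the question of whether and how lycorine relieves intrahepatic cholestasis. Both groups carried the knockout and no wild-type group was analysed here. The genotype field names the knockout without a tissue, while the growth protocol uses the abbreviation Mdr2-HKO, so the reach of the deletion is not stated, and dose and sex are not given either. The labels number the libraries 1 to 3 within each group and do not state that each is a separate animal, so p-values measure the spread between these libraries alone, and that spread may be technical.

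Carboxylesterases are serine hydrolases that cut ester, amide and thioester bonds. In hepatocytes most of them lie in the lumen of the endoplasmic reticulum, where they split drugs, prodrugs and pesticides and also act on triacylglycerol and cholesteryl esters, and some are secreted into plasma. In the mouse the genes were duplicated many times in tandem, and the proteins are grouped by sequence into subfamilies, of which Ces1 holds the enzymes nearest to human CES1 and Ces2 those nearest to human CES2.

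All 10 genes lie on chromosome 8 in GRCm38. The 6 Ces1 genes stand side by side on the minus strand between 93056728 and 93337308. The 3 Ces2 genes and Ces3a lie on the plus strand between 104734003 and 105058413. Soluble proteins of the endoplasmic reticulum are held there by a short signal at the C-terminus, which in carboxylesterases is usually histidine, any residue, glutamate and leucine. Because this signal separates resident from secreted enzymes, the last 30 coding bases of each member are shown, 5′ to 3′ on the coding strand, read from the GENCODE M21 transcripts, with the last 4 codons before the stop codon in capitals.
Ces1b: gaccctactgagcacAGAGAACACAAAtga
Ces1c: gaccctactgaacacACAGAACACAAAtga
Ces1d: ccatcccacagggaaCATGTTGAGCTCtga
Ces1e: caactgccgacagaaCACACTGAGCTGtga
Ces1f: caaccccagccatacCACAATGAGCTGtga
Ces1g: tcatcccatagggaaCATGTTGAACTGtga
Ces2a: ggttctcaggacaagCATGCAGAGCTGtag
Ces2c: gcttctcaggacaagCACAGGGAGCTTtag
Ces2e: gggtctcaggagaggCACAAAGAGTTGtag
Ces3a: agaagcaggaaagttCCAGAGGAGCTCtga

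In 7 of the 10 members the capitals encode histidine, any residue, glutamate and leucine. Ces1b and Ces1c end in other codons altogether. Ces3a keeps the glutamate and leucine codons but has a different first codon, as does its neighbour Ces3b, whose last 30 coding bases are identical to those of Ces3a. The end shown for Ces1g lies at chr8:93302905-93302934 on the minus strand and that for Ces2a at chr8:104741387-104741416 on the plus strand, and none of the 10 ends spans an intron.

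The coding sequences were 1665 to 1716 bases long. They were most alike within a subfamily. The 15 pairs of Ces1 members shared 72.1% to 90.8% of aligned coding bases and the 3 pairs of Ces2 members 82.5% to 83.8%, whereas the 27 pairs from different subfamilies shared 51.8% to 55.4%. The closest pair among the members was Ces1b with Ces1c, at 90.8%, and Ces3a shared 95.3% with Ces3b. Such likeness can blur a gene's value when reads are assigned. Of the stretches of 100 bases in each gene's transcripts, 13.6% in Ces2c were also in another gene, nearly all of them in the pseudogene Ces2d-ps. The share was 8.13% in Ces2a, with the pseudogene Gm7208, which was listed at no more than 0.03 TPM, and 6.88% in Ces3a, with Ces3b. It was 1.29% in Ces1b, 1.03% in Ces1c and 0 in Ces1d, Ces1e, Ces1f, Ces1g and Ces2e. For stretches of 50 bases the shares were higher, at 36.08% in Ces2c, 25.55% in Ces3a, 17.34% in Ces2a, 13% in Ces1c and 11.59% in Ces1b, and 0.9% to 3.3% in the other 5. The read length is not stated in the labels. How the authors' counting divided such reads is not given in the sources used here, so the level of Ces2c is the least certain.

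**Figure D1:**
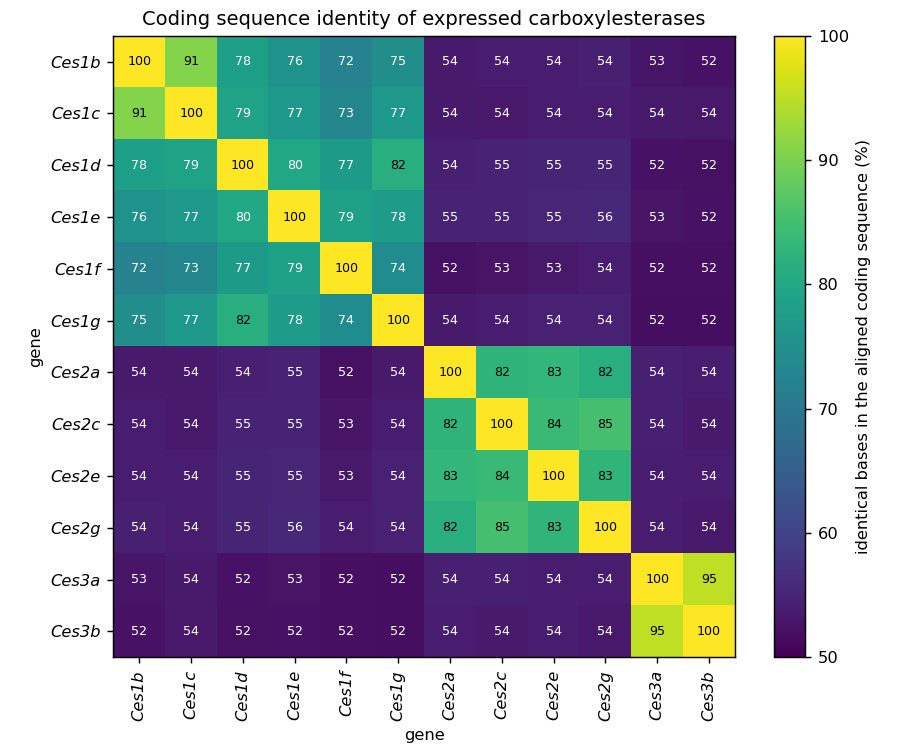
Identity of the aligned coding sequences, in percent of bases, for the 10 members and for Ces2g and Ces3b; both axes list the genes and each square is a pair. The Ces1 block lies between 72.1% and 90.8%, and squares between members of different subfamilies between 51.8% and 55.4%.

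The libraries were unequal before any comparison of the groups. Vehicle 3 stood apart: albumin (Alb), the main plasma protein of hepatocytes, was at 5038.54 TPM there and between 11823.85 and 19785.48 TPM elsewhere, and protein-coding nuclear genes held 51.5% of its TPM against 63.66% to 78.06%. TPM, a transcript share, is scaled per gene length and to the same sum in every library, so depth is unknown and levels can be compared between genes. Abcb4 itself was present in every library, at 43.53, 10.83 and 12.25 TPM with vehicle and 8.96, 8.32 and 32.19 TPM with lycorine, which does not show what part of its transcript remains. Xist was at 3.08 TPM in vehicle 3 and did not exceed 0.71 TPM in the others, and Y-linked Ddx3y was read in all 6, at 3.1 to 9.41 TPM, highest in vehicle 3 as well. The 15 hepatocyte genes fixed as a reference summed to 48950 to 77690 TPM with vehicle and 78340 to 102100 TPM with lycorine, with Apoa2 the largest part, while their geometric means overlapped at 1458, 1542 and 936.1 TPM against 1996, 1747 and 1378 TPM. Of the tested markers of Kupffer cells, the liver's resident macrophages, 5 of 9 had an unadjusted limma p under 0.05, all lower in lycorine, beside 0.65% of all rows. None was called (smallest adjusted limma p 0.832), and the 10 markers summed to 218.2 to 525.6 TPM against 149.4 to 387.5 TPM. Tested markers of sinusoidal endothelial cells (8), recruited macrophages (8) and neutrophils (3) all had log2 fold changes below 0 too. Above 0 were 8 of 10 cholangiocyte, 5 of 8 stellate cell and 3 of 4 B cell markers. In bulk liver, fewer cells of a type and less RNA per cell cannot be told apart. Fat and gut also make carboxylesterases. The 6 adipocyte markers summed to 5.61 to 11.13 TPM with vehicle and 9.6 to 20.11 TPM with lycorine, mostly from Cidec (2.88 to 12.58 TPM) and Fabp4 (1.45 to 7.53 TPM), while the other 4 stayed under 1 TPM and Lep was listed at 0. The 6 enterocyte markers summed to 10.31 to 28.64 TPM and 28.41 to 39.82 TPM, mostly from Fabp2. Fabp2 was higher in every lycorine library (log2 fold change 0.87). Alpi and Sis were listed at 0, and Vil1 did not exceed 1.13 TPM, Cdh17 0.42 TPM and Lct 0.01 TPM. The part of these cells in the results was not tested.

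Across the 13854 rows tested with limma on log2(TPM + 1), 0 were called at a Benjamini-Hochberg adjusted p under 0.05, which is 0% of all rows and 0 of the 10 members. The smallest adjusted p of any row was 0.3761, and 476 rows had an unadjusted p under 0.05. Higher in lycorine with an unadjusted p under 0.05 were 386 rows, or 2.79%, and lower were 90, or 0.65%, a split that turned to 132 higher and 183 lower under median-of-ratios scaling. All rows together were shifted: the median log2 fold change was 0.22, and 0.39 among rows of at least 100 TPM. The members had a median log2 fold change of 0.37, with 9 of 10 above 0. Rows of at least 5 TPM had a median of 0.32, with 79.58% above 0. Ces3a, Ces1b and Ces1c, the members averaging over 100 TPM, were at 0.06, 0.17 and 0.28, below the 0.39 of such rows. Under median-of-ratios scaling the median of all rows was at -0.002 and that of the members at 0.11.

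The members spanned a wide range of levels. By the mean over all 6 libraries, the order was Ces3a at 696.3 TPM, Ces1b at 388.5, Ces1c at 247.9, Ces2a at 83.24, Ces1d at 50.4, Ces1g at 44.62, Ces1f at 39.27, Ces2e at 37.9, Ces1e at 15.43 and Ces2c, the lowest. Each gene from Ces3a to Ces2a exceeded the next in the order in 6 of 6 libraries, and so did Ces2e over Ces1e and Ces1e over Ces2c. The middle of the order was not separated: Ces1d exceeded Ces1g in 4 of 6 libraries, Ces1g exceeded Ces1f in 5 of 6, and Ces1f exceeded Ces2e in 3 of 6. Among protein-coding nuclear genes Ces3a ranked 133 by its level, Ces1b 246 and Ces2c 5806. The 3 most abundant members are the 3 whose coding ends lack the usual retention codons. Together these members held 72.75% to 87.35% of the members' summed TPM. Outside the members, Ces3b lacks these codons too, at a mean of 121.1 TPM. Ces1a, Ces2f, Ces4a and Ces5a also lack them and did not exceed 0.37 TPM in any library.

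**Figure D2:**
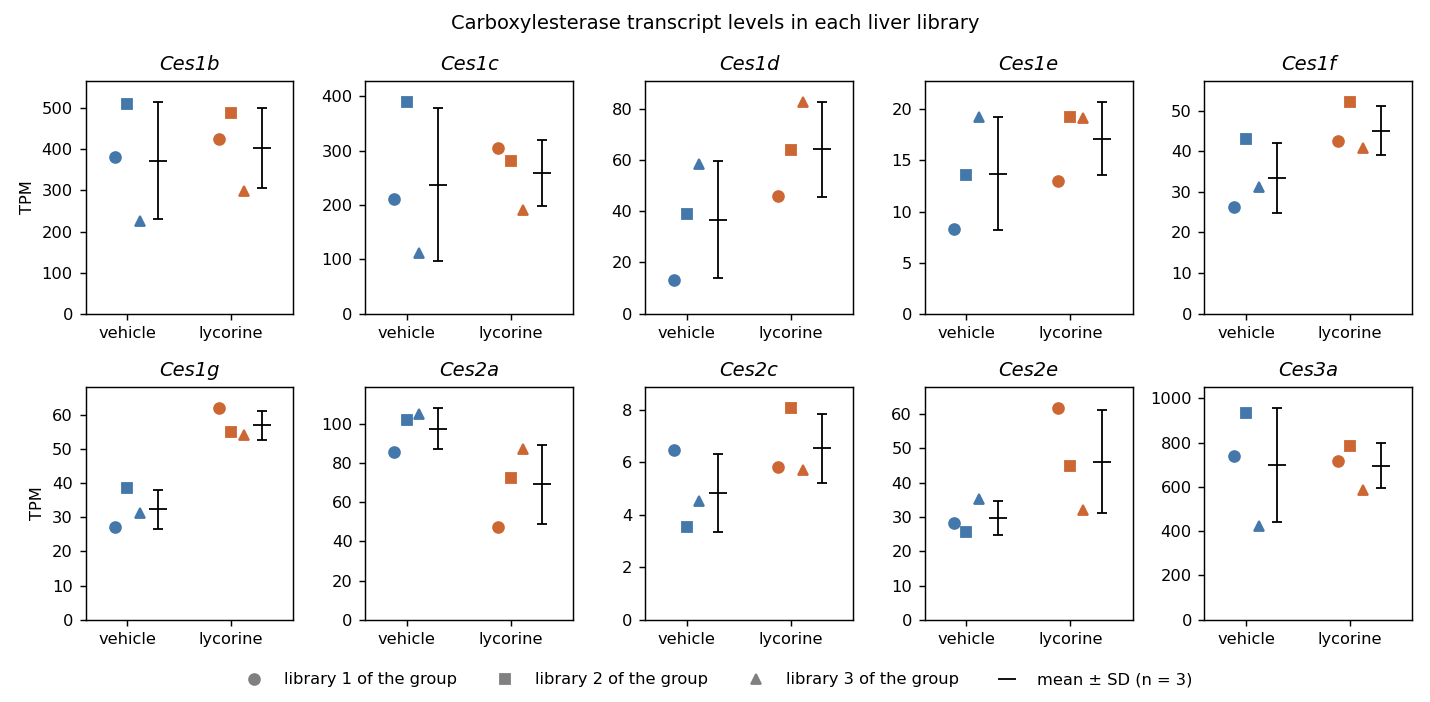
TPM of each member in every library, with vehicle in blue and lycorine in orange, a marker shape for each library number, and the mean ± SD (n = 3) beside the points; axes start at 0 and differ between panels. In the panel of Ces1g the lycorine libraries lie between 53.96 and 61.91 TPM, above the highest vehicle library at 38.54 TPM.

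The members' sum did not separate the groups. Per library it came to 1526, 2095 and 1044 TPM with vehicle and 1723, 1871 and 1397 TPM with lycorine, or 1555 ± 526.3 and 1664 ± 242.7 (SD, n = 3), a ratio of 1.07. Vehicle held both the highest and the lowest sum. The ratio was 0.9187 without vehicle 3 and 0.8371 under median-of-ratios scaling. The members together took up 0.1044% to 0.2095% of all TPM.

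Ces3a, Ces1b and Ces1c formed the abundant group without the usual retention codons. Ces3a (ENSMUSG00000069922), a Ces3 enzyme made mainly in liver, was at 738.46, 931.19 and 422.17 TPM with vehicle and 714.66, 784.99 and 586.18 TPM with lycorine. Its libraries interleaved, and the vehicle group held the highest and the lowest value. Lycorine and vehicle differed by a log2 fold change of 0.06 (SE 0.35, adjusted limma p = 0.9711, two-sided exact permutation p = 0.9), and -0.26 without vehicle 3. The annotated locus Gm45724 overlaps Ces3a on the opposite strand and had a mean of 0.5267 TPM, and Gm45909 overlaps Ces1d on its own strand with a mean of 0.095 TPM. Strand use in the counting is not stated, so reads of such loci cannot be told apart from those of the genes.

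Ces1b (ENSMUSG00000078964) lies between Ces1a and Ces1c. It was at 382.52, 509.82 and 225.62 TPM with vehicle and at 425.13, 489.71 and 298.28 TPM with lycorine. The groups overlapped, with vehicle 2 the highest and vehicle 3 the lowest. This gave a log2 fold change of 0.17 (SE 0.38, adjusted limma p = 0.9236, exact permutation p = 0.7), and it was -0.16 without vehicle 3.

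Ces1c (ENSMUSG00000057400) encodes the main carboxylesterase of mouse plasma, the enzyme that cleaves many ester drugs in mouse blood. It was at 210.41, 389.01 and 111.49 TPM with vehicle and at 305.1, 280.53 and 191.09 TPM with lycorine, so all 3 lycorine libraries fell inside the range of vehicle. Between the groups the log2 fold change was 0.28 (SE 0.48, adjusted limma p = 0.8958, exact permutation p = 0.7), and -0.17 without vehicle 3. Ces3a, Ces1b and Ces1c went up and down together over the libraries. The ratio of Ces1b to Ces3a stayed between 0.5089 and 0.6238 over the 6 libraries and that of Ces1b to Ces1c between 1.311 and 2.024. All 3 were lowest in vehicle 3, the library with the least albumin, and the part of that library's makeup in their levels was not tested.

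**Figure D3:**
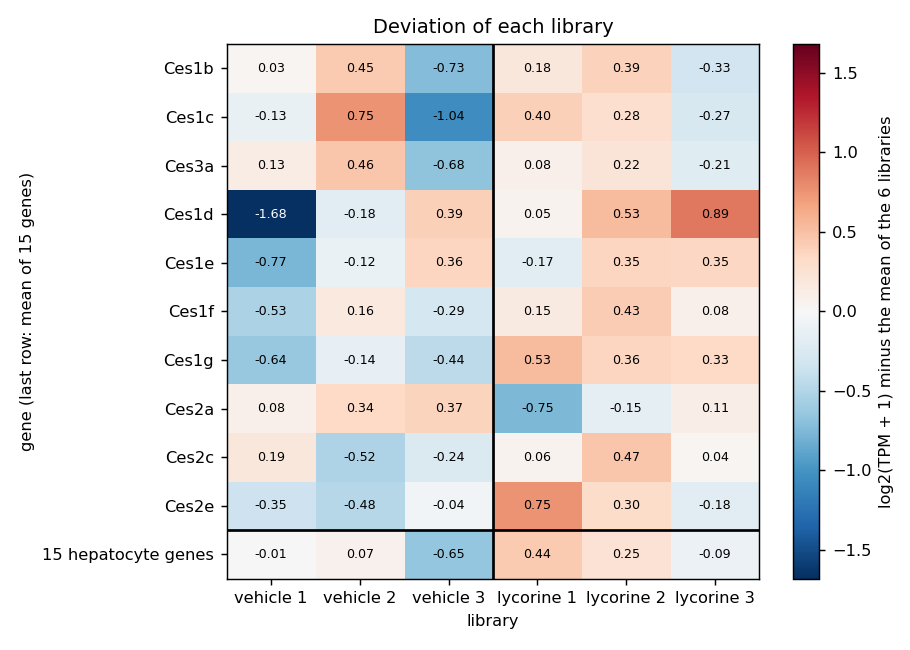
Each square gives log2(TPM + 1) in a library minus the gene's mean over the 6 libraries (columns), for the 10 members and, in the last row, for the mean log2 TPM of 15 hepatocyte genes; red is above the mean and blue below. Ces1b, Ces1c and Ces3a share the low value of vehicle 3 with the hepatocyte genes, while Ces1d and Ces1e are lowest in vehicle 1.

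Ces1d, Ces1e, Ces1f and Ces1g are the Ces1 members with the retention codons. Their summed level was 74.63, 133.9 and 140 TPM with vehicle and 163.2, 190.2 and 196.3 TPM with lycorine. Every lycorine library was above every vehicle library and the ratio of means was 1.578, a grouping that was formed with the values known and carries no test. The separation was not kept on other scales: after median-of-ratios scaling the sums were 62.04, 185.5 and 164.2 against 128.7, 181.5 and 193 (ratio 1.222), and as a share of the members' sum they were 4.89%, 6.39% and 13.41% against 9.473%, 10.17% and 14.06%, so the groups overlapped both ways.

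Ces1g (ENSMUSG00000057074, chr8:93302369-93337308) encodes a liver hydrolase whose loss in mice raises hepatic and plasma lipids. It was at 27.07, 38.54 and 31.28 TPM with vehicle and 61.91, 54.99 and 53.96 TPM with lycorine, or 32.3 ± 5.8 and 56.95 ± 4.32 (SD, n = 3). All 3 lycorine libraries lay above all 3 vehicle libraries, which no other member showed. Such a separation was present in 9.6% of all rows, and 1.01% were separated in the other direction. The fold of means was 1.763 and the log2 fold change 0.81 (SE 0.27), with an unadjusted limma p of 0.01962 and a Benjamini-Hochberg adjusted p of 0.832, so the difference was not called. The exact permutation p was 0.1, the smallest that 3 against 3 libraries can give. Leaving out vehicle 3 gave 0.80, and over all 18 alternatives the value stayed between 0.42 and 0.94. Under median-of-ratios scaling it was 0.53, the unadjusted limma p was 0.1677 and the groups overlapped.

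Ces1d (ENSMUSG00000056973), the triacylglycerol hydrolase that mobilises stored fat for very-low-density lipoprotein, varied most among the members. It was at 13.06, 38.77 and 58.3 TPM with vehicle and at 45.78, 63.95 and 82.51 TPM with lycorine. The groups overlapped through vehicle 3, which lay above lycorine 1, and vehicle 1 was far below the rest. Its log2 fold change of 0.98 (SE 0.55, adjusted limma p = 0.832, exact permutation p = 0.2) was the largest of the members. It was 0.38 without vehicle 1 and 1.42 without vehicle 3, so the size of the difference depended on single vehicle libraries.

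Ces1e (ENSMUSG00000061959) encodes egasyn, which holds β-glucuronidase in the endoplasmic reticulum. It was at 8.27, 13.59 and 19.27 TPM with vehicle and 13.04, 19.24 and 19.17 TPM with lycorine. The highest value was in vehicle 3, just above lycorine 2 and 3, and vehicle 1 was again the lowest, as for Ces1d. For the whole groups the log2 fold change was 0.36 (SE 0.37, adjusted limma p = 0.8326, exact permutation p = 0.7), and 0.06 without vehicle 1. Gusb, the gene of β-glucuronidase, was at 9.73, 4.33 and 3.93 TPM against 12.85, 5.66 and 5.34 TPM, with overlapping groups.

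Ces1f (ENSMUSG00000031725), which also acts on acylglycerols, was at 26.23, 42.97 and 31.16 TPM with vehicle and 42.5, 52.07 and 40.67 TPM with lycorine. Vehicle 2 lay just above lycorine 1 and 3, and the other vehicle libraries below all lycorine libraries. Its log2 fold change came to 0.44 (SE 0.30, adjusted limma p = 0.832, exact permutation p = 0.3), and was 0.63 without vehicle 2, 0.29 without vehicle 1 and 0.16 under median-of-ratios scaling.

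The 3 Ces2 members differed in direction. Their sum was 120.1, 131.3 and 144.4 TPM with vehicle and 114.9, 125.4 and 124.8 TPM with lycorine, with overlapping groups, and Ces2a made up most of it.

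Ces2a (ENSMUSG00000055730, chr8:104734003-104741634), an enzyme of liver and intestine that acts on drugs and on acylglycerols, was the only member with a log2 fold change below 0. It was at 85.57, 102 and 104.79 TPM with vehicle and 47.45, 72.44 and 87.21 TPM with lycorine, or 97.45 ± 10.4 and 69.03 ± 20.1 (SD, n = 3). Lycorine 3 lay just above vehicle 1, so the groups overlapped by that pair alone. The log2 fold change was -0.53 (SE 0.32, unadjusted limma p = 0.1367, adjusted p = 0.832, exact permutation p = 0.2). It stayed below 0 in all 18 alternatives, from -0.92 to -0.29, and was -0.82 under median-of-ratios scaling and -0.48 without vehicle 3. Without lycorine 1, the library lowest for Ces2a, it was -0.29.

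Ces2e (ENSMUSG00000031886), a Ces2 enzyme of liver and gut, was at 28.11, 25.72 and 35.14 TPM with vehicle and 61.65, 44.92 and 31.88 TPM with lycorine. Lycorine 1 and 2 were above all vehicle libraries and lycorine 3 was below vehicle 3. The log2 fold change was 0.58 (SE 0.33, adjusted limma p = 0.832, exact permutation p = 0.2), and it was 0.35 without lycorine 1.

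Ces2c (ENSMUSG00000061825), known as an acylcarnitine hydrolase, was at 6.46, 3.54 and 4.52 TPM with vehicle and 5.83, 8.05 and 5.71 TPM with lycorine. The groups overlapped through vehicle 1. The log2 fold change was 0.38 (SE 0.31, adjusted limma p = 0.832, exact permutation p = 0.3), and it was 0.58 without vehicle 1, 0.22 without vehicle 2, 0.24 without lycorine 2 and 0.15 under median-of-ratios scaling. Ces2d-ps, the pseudogene that shares sequence with Ces2c, was at 2.74, 9.19 and 0.17 TPM against 6.5, 4.79 and 8.19 TPM.

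**Figure D4:**
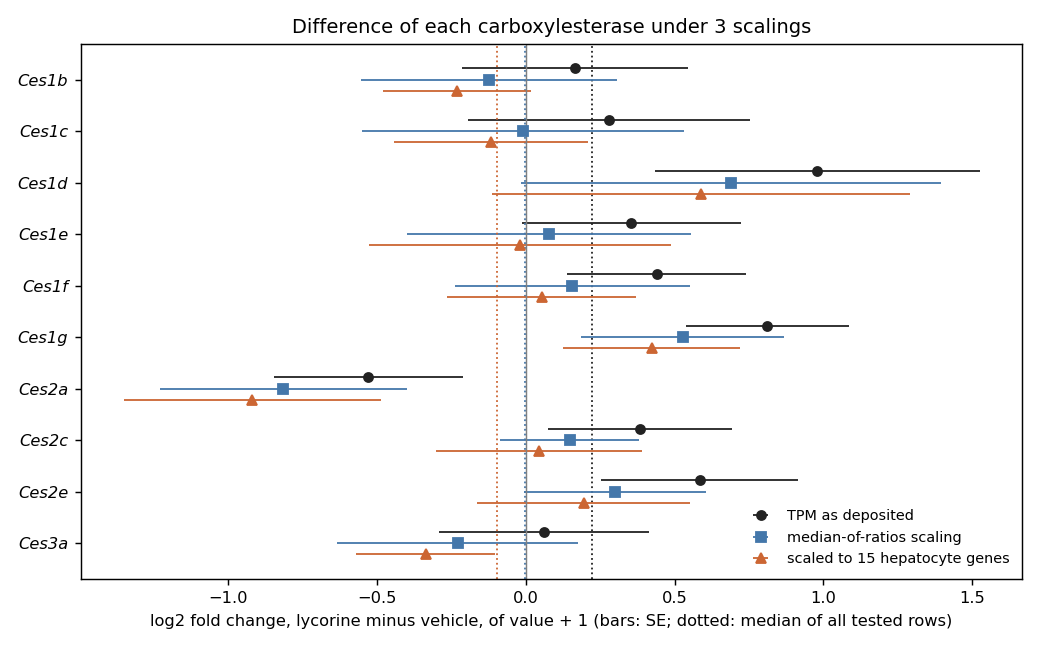
Log2 fold change of each member (lycorine minus vehicle, on log2(value + 1)) with its SE, for TPM as deposited, after median-of-ratios scaling and after scaling to 15 hepatocyte genes; dotted lines give the median of all tested rows under each scaling. Ces2a is below 0 and Ces1d and Ces1g above 0 under all 3, while Ces1b, Ces1c, Ces1e and Ces3a move across 0.

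Scaling between libraries moved all members by similar amounts, so the members were also compared with each other inside each library, where scaling cancels. Of the 45 ratios between members, 7 did not overlap between the groups, and 5 of these had Ces2a as the denominator. Of single rows, 10.61% did not overlap, and 14.49% of rows averaging at least 5 TPM. No such share was computed for ratios of other genes. The ratio of Ces1g to Ces2a was 0.3163, 0.3778 and 0.2985 with vehicle and 1.305, 0.7591 and 0.6187 with lycorine. Ces1g was thus below Ces2a in every vehicle library and above it in lycorine 1. The ratio of Ces1d to Ces2a was 0.1526, 0.3801 and 0.5564 with vehicle and 0.9648, 0.8828 and 0.9461 with lycorine. For Ces1f the ratio to Ces2a was 0.3065, 0.4213 and 0.2974 against 0.8957, 0.7188 and 0.4663. All of these ratios were larger in every lycorine library than in any vehicle library, and the same held for Ces1e and Ces2e over Ces2a. For Ces2e the closest libraries were vehicle 3 at 0.3353 and lycorine 3 at 0.3656. The other pairs were Ces1d over Ces1e, higher in lycorine, and Ces1f over Ces1g, at 0.969, 1.115 and 0.9962 in vehicle and 0.6865, 0.9469 and 0.7537 in lycorine. The 45 ratios share their genes, the 7 were picked out by their values, and no test was made of them. Library makeup does not cancel in a ratio. Over the 6 libraries, Pearson's r with the mean of the 15 hepatocyte genes was -0.777 for Ces2a. It was 0.645 for Ces1g, 0.57 for Ces1f, 0.495 for Ces2e, -0.107 for Ces1d and -0.301 for Ces1e. The part of library makeup in the ratios was not tested.

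**Figure D5:**
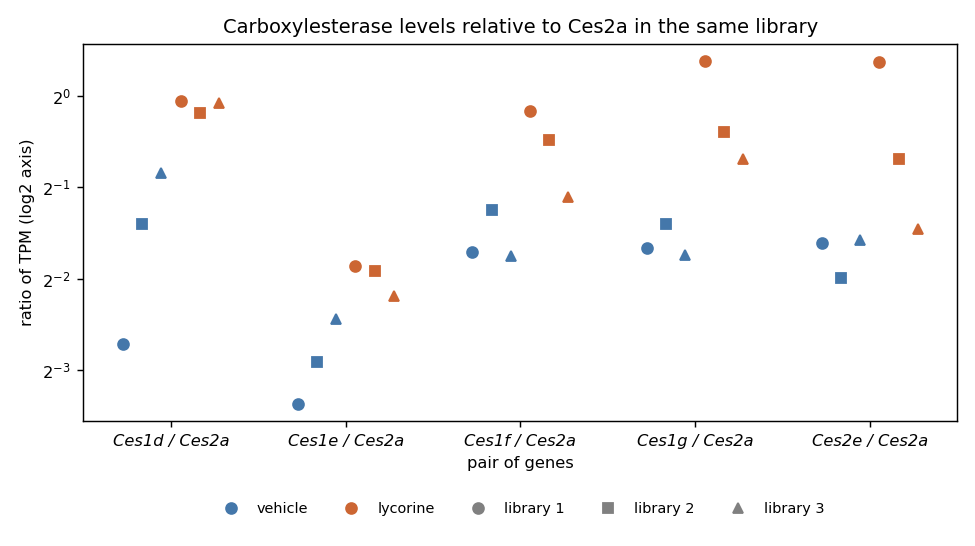
Ratio of TPM of 5 members to that of Ces2a in the same library, on a log2 axis, with vehicle in blue, lycorine in orange and a marker shape for each library number. For Ces1g the vehicle libraries lie between 0.2985 and 0.3778 and the lycorine libraries between 0.6187 and 1.305.

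The bases upstream of the genes are shown for Ces1b and Ces1c, whose levels went up and down together. They are also shown for Ces1g and Ces2a, whose log2 fold changes had opposite signs, though neither gene was called. A link between these bases and the levels was not tested. The bases come from RefSeq for GRCm38.p6, which lists 7 of the 10 members here. Ces3a, which varied with Ces1b and Ces1c, is not among the 7. The windows were cut to bases outside the GENCODE M21 gene, 5′ to 3′ on the gene's strand. Capitals mark the promoter motif CCAAT, or the nuclear receptor half-site AGGTCA, or the TATA box written as TATAAA, on either strand, and matches in the bases left off, such as the CCAAT of Ces1b, are not shown.
Ces1b (chr8:93080018-93080190, minus strand): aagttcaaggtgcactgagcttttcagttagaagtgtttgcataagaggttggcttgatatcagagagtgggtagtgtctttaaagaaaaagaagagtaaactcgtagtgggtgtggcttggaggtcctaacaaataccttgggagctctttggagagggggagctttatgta
Ces1c (chr8:93131284-93131533, minus strand): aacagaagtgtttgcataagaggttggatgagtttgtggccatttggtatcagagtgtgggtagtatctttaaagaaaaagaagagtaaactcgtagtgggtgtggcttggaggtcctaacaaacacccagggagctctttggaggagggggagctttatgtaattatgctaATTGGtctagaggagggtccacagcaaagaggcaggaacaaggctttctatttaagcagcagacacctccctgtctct
Ces1g (chr8:93337309-93337459, minus strand): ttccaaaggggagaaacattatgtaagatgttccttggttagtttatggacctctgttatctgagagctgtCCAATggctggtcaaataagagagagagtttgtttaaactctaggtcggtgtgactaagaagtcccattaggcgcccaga
Ces2a (chr8:104733753-104734002, plus strand): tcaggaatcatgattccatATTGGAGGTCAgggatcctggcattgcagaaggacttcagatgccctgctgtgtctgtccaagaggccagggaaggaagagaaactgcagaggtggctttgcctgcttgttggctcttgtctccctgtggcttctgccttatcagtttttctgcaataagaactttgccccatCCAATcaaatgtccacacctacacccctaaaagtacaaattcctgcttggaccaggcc

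Motifs were counted in the full windows of 250 bases before the RefSeq start. The windows of Ces1b and Ces1c aligned over 219 bases, of which 209, or 95.4%, were identical. The alignment also held 27 gap bases, which that share leaves out. CCAAT, on either strand, was in 5 of the 7 listed members and in 33.85% of all 32851 RefSeq windows of this length. AGGTCA was in the window of Ces2a alone, 226 bases before the start and next to a reversed CCAAT, and in 14.02% of all windows. TATAAA, read on the reverse strand, was in that of Ces1g alone, 26 bases before the RefSeq start, and in 12.37% of all windows. The GENCODE gene of Ces1g begins upstream of that start. The TATAAA match thus lies inside the GENCODE gene and is not among the bases shown. These matches describe the letters and do not show that a factor binds.

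The other carboxylesterase genes were mostly at very low levels. Of the 10, Ces1a, Ces1h, Ces2b, Ces2f and Ces4a did not exceed 0.37 TPM in any library, Ces5a was listed at 0, and Ces2h was above 1 TPM in vehicle 3 alone, at 5.01 TPM. Only Ces2g, Ces3b and Ces2d-ps reached the mean of 1 TPM needed for the test. Ces2g was at 6.42, 6.78 and 3.97 TPM with vehicle and 11.68, 10.59 and 8.72 TPM with lycorine. As for Ces1g, its groups did not overlap, and its log2 fold change was 0.77 (SE 0.30, unadjusted limma p = 0.03553, adjusted p = 0.832, exact permutation p = 0.1). Ces3b, the near copy of Ces3a, was at 109.08, 129.96 and 176.46 TPM with vehicle and 34.9, 164.9 and 111.05 TPM with lycorine. Its low value in lycorine 1 set the log2 fold change of -0.65 (SE 0.56), which was -0.004 without that library. The ratio of Ces3a to Ces3b ran from 2.392 in vehicle 3 to 20.48 in lycorine 1, far more variable than that of Ces1b to Ces3a.

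Protein-coding genes within 250 kb of the 2 rows of carboxylesterases were read beside them. Next to the Ces1 row, Mmp2 and Lpcat2 were expressed, with log2 fold changes of 0.14 and 0.06 and overlapping groups. Near the Ces2 and Ces3 row 15 genes were tested, 12 with a log2 fold change above 0 and 3 below, with a median of 0.38, beside 0.22 and 69.87% above 0 over all rows. The largest values were those of Fbxl8 (0.77) and Ciao2b (0.68), whose groups overlapped. Pdp2 and Tmem208 were higher in all 3 lycorine libraries, with log2 fold changes of 0.43 and 0.43 (limma adjusted p = 0.832), which makes 2 of 15 without overlap beside 9.6% of all rows. In either direction, 14.49% of rows averaging at least 5 TPM did not overlap.

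Other genes of ester and lipid metabolism were read from lists, and 0 of their members were called. Their values stand beside those of all tested rows, where 69.87% had a log2 fold change above 0 (79.58% of rows of at least 5 TPM), 2.79% had an unadjusted limma p under 0.05 and were higher in lycorine, 9.6% did not overlap and were higher, and the median was 0.22 (0.32 at 5 TPM or more). Among rows averaging at least 5 TPM, 14.49% did not overlap in either direction. Of 15 other ester and epoxide hydrolases, all tested, 2 had an unadjusted limma p under 0.05, higher in lycorine, 15 had a log2 fold change above 0 with a median of 0.56, and 9 did not overlap between groups. Ephx1, the microsomal epoxide hydrolase that shares drug substrates and location with carboxylesterases, was at 323.4, 312.94 and 136.75 TPM with vehicle and 590.35, 407.21 and 393.57 TPM with lycorine (log2 fold change 0.92, limma adjusted p = 0.832). Pon3, a lactonase, had a log2 fold change of 0.77 and Bphl, which activates valacyclovir, one of 0.64, and their groups did not overlap either. Median-of-ratios scaling gave 0.63 for Ephx1, 0.49 for Pon3 and 0.36 for Bphl. Scaling to hepatocyte genes gave 0.53, 0.40 and 0.25.

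Of 20 neutral lipid hydrolases 16 were tested, 1 had an unadjusted limma p under 0.05, and the median log2 fold change was 0.42, with 14 above 0 and 2 below, beside the 79.58% above 0 over rows of at least 5 TPM. Pnpla2, the lipase that starts triacylglycerol breakdown on lipid droplets, was at 54.99, 42.79 and 34.79 TPM with vehicle and 94.84, 63.89 and 66.77 TPM with lycorine (log2 fold change 0.76, limma adjusted p = 0.832). Lipc, the secreted hepatic lipase, was higher in every lycorine library (0.56), and so was Pnpla7, a lysophospholipase (0.63). Of the 16 tested, 4 did not overlap, all higher in lycorine, beside 9.6% of all rows. In either direction, 14.49% of rows averaging at least 5 TPM did not overlap. Median-of-ratios scaling gave 0.47 for Pnpla2, 0.27 for Lipc and 0.34 for Pnpla7. Scaling to hepatocyte genes gave 0.37, 0.17 and 0.24.

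Of 20 genes of lipoprotein assembly and lipid storage 19 were tested, 2 had an unadjusted limma p under 0.05, both higher in lycorine, and the median log2 fold change was 0.53. Fitm1, which helps to form lipid droplets, was at 20.13, 29.16 and 14.77 TPM with vehicle and 44.14, 52.43 and 44.14 TPM with lycorine (log2 fold change 1.15, unadjusted limma p = 0.008577, adjusted p = 0.832, exact permutation p = 0.1). Soat2, which makes cholesteryl esters, the substrate of several carboxylesterases, had a log2 fold change of 0.76 without overlap, and Cidec, a lipid droplet protein, one of 0.88 with overlapping groups. Of the 19 tested, 6 did not overlap, all higher in lycorine, beside 9.6% of all rows. In either direction, 14.49% of rows averaging at least 5 TPM did not overlap. Median-of-ratios scaling gave 0.86 for Fitm1, 0.49 for Soat2 and 0.64 for Cidec. Scaling to hepatocyte genes gave 0.76, 0.38 and 0.55.

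Of the 4 genes of retention in the endoplasmic reticulum 3 were tested, with a median log2 fold change of 0.35 and overlapping groups in all. They were Kdelr2 (0.53), Gusb (0.35) and Kdelr1 (0.31), where the Kdelr genes encode receptors that return escaped proteins to the endoplasmic reticulum. Of 20 nuclear receptors and liver transcription factors 19 were tested, 12 had a log2 fold change above 0 and 7 below, and the median was 0.14. Cebpa, a factor of hepatocyte identity, was at 55.39, 61.47 and 28.02 TPM against 107.7, 104.17 and 63.98 TPM (log2 fold change 0.95, unadjusted limma p = 0.04476, exact permutation p = 0.1). The bile acid receptor Nr1h4 (0.55) and the shared partner receptor Rxra (0.43) were also higher in every lycorine library, and all 3 had a limma adjusted p of 0.832. These were the 3 of 19 without overlap, beside 9.6% of all rows that were higher without overlap. In either direction, 14.49% of rows averaging at least 5 TPM did not overlap. Median-of-ratios scaling gave 0.67 for Cebpa, 0.26 for Nr1h4 and 0.15 for Rxra. Scaling to hepatocyte genes gave 0.57, 0.16 and 0.04.

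The genes whose profile over the 6 libraries was most like that of the members were found by Pearson's r of log2(TPM + 1) among 6205 protein-coding genes with a mean of at least 5 TPM, as a description without a test. Nearest to the mean of the standardized members were Hao1 (0.9916), Lactb2 (0.9864), Tm7sf2 (0.9753), Dgat2 (0.9679) and Acsm3 (0.9615). Nearest to Ces3a were Il1rap (0.9769), Cacnb4 (0.9732), Inhbc (0.9655), Il18 (0.9567) and Pipox (0.9549). All these profiles share the same 6 libraries, vehicle 3 among them. With 6205 candidates over 6 libraries, a very high r can arise without any link. The members themselves did not share a profile, with r from -0.883 (Ces2a with Ces2e) to 0.971 (Ces1b with Ces3a).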

How the data were processed

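The authors deposited 1 table of expression values for the 6 libraries. Its name speaks of FPKM, but each column of the deposited table sums to 1000000, so the values are in TPM, and the test planned for FPKM was run on TPM. Libraries were made from 1.3 µg of total RNA with the NEBNext Ultra RNA kit, per the labels' protocols. The submitters' processing notes list GRCm38 and mm10. Aligner, quantifier and annotation were not given in the sources used here. Columns that name only genotype and number were taken as vehicle, the group left once the lycorine columns were matched. TPM keeps no depth, so no counting interval is given.

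Identifiers were named from GENCODE M21, which matched 52135 of 55416, and 3185 rows are assembled loci. Rows averaging 1 TPM or more were tested on log2(TPM + 1), which understates changes of low genes, with limma 3.58.1 in R 4.3.3 (variance trend, two-sided, Benjamini-Hochberg over 13854 rows, threshold 0.05). Members also had an exact permutation test over 20 assignments. Coding sequences were aligned with MAFFT 7.526.

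The members and gene lists were chosen with earlier results of these data known. Named genes were all carboxylesterases, the 3 tested genes of smallest p in each pathway list, and the 5 genes most like the members' mean and Ces3a. The 18 alternatives covered pseudocount, filter, scaling, variance model, library weights, a replicate block and leaving out libraries, and scaled sums of Ces1d to Ces1g were added after seeing the data.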

Additional observations from a re-analysis of the deposited data

How the results depend on the processing

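No member was called under any of the 18 alternatives, and Ces1d, Ces1f, Ces1g, Ces2a, Ces2c and Ces2e kept their sign in all of them. Over all rows 1 was called when the pseudocount was 0.1, 1 with array quality weights and 0 to 2 when a library was left out (2 without vehicle 2, 1 without lycorine 2). The members' median log2 fold change of 0.37 became 0.11 with median-of-ratios scaling, 0.15 with quantile normalization, 0.14 with protein-coding nuclear genes alone, 0.012 when scaled to hepatocyte genes and 0.54 with array quality weights. Median-of-ratios scaling gave -0.12 for Ces1b, -0.01 for Ces1c and -0.23 for Ces3a, and quantile normalization -0.14, -0.054 and -0.18. Protein-coding nuclear genes alone gave -0.10 for Ces1b and -0.21 for Ces3a. Scaling to hepatocyte genes gave -0.23 for Ces1b, -0.12 for Ces1c, -0.02 for Ces1e, -0.34 for Ces3a and -0.08 for Kdelr1. Array quality weights, whose estimate stopped before it converged and gave lycorine 2 a weight of 12.03, turned Ces3a to -0.005 and Ces3b to 0.17. With 1 library left out, values ran from -0.16 to 0.43 for Ces1b, -0.17 to 0.73 for Ces1c, -0.26 to 0.31 for Ces3a, -0.14 to 0.62 for Kdelr1 and -0.013 to 0.71 for Gusb, and without vehicle 3 and lycorine 3 Ces3a was at -0.15. The cause of these changes was not tested.

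In place of 1 member with an unadjusted p under 0.05, there were 0 with median-of-ratios scaling, 0 with quantile normalization, 0 when scaled to hepatocyte genes, 4 with array quality weights, 2 without vehicle 3 and lycorine 3, and 0 to 3 with 1 library left out, with 0 without lycorine 1 or lycorine 2 and 3 without lycorine 3. With protein-coding nuclear genes alone it was Ces2a in place of Ces1g. Over all rows, those with an unadjusted p under 0.05 went from 386 higher and 90 lower to 972 and 163 under array quality weights. Hepatocyte scaling gave 81 and 144 such rows, quantile normalization 137 and 158, and median-of-ratios scaling 132 and 183. Leaving out lycorine 1 gave 197 and 57, lycorine 2 gave 150 and 43, and lycorine 3 gave 360 and 61. Leaving out vehicle 3 and lycorine 3 together gave 475 and 103. In place of 1 member without overlap, there were 0 with median-of-ratios scaling, 4 without vehicle 3 and lycorine 3, and 1 to 3 with 1 library left out, with 3 without vehicle 1, vehicle 3 or lycorine 3. Of all rows, 10.61% did not overlap, against 6.828% with median-of-ratios scaling, 28.93% without vehicle 3 and lycorine 3, 33.08% without vehicle 1, 17.22% without vehicle 3 and 20.93% without lycorine 3. When values were scaled to hepatocyte genes, the member without overlap was Ces3a, lower, in place of Ces1g. With the replicate block, 2 members, Ces1d and Ces1g, had an unadjusted p under 0.05, none was called, and rows with such a p went from 386 higher and 90 lower to 872 and 161. The labels do not state that the numbers pair libraries across the groups, so the main test did not treat them as pairs. Same-numbered libraries had deviations correlated at 0.311, 0.049 and 0.291, and differently numbered ones at -0.344 to 0.214. Whether the libraries are pairs was not tested. Unknown depth limits the reading of low genes such as Ces2c.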
